A study of Arabidopsis thaliana with 8 samples.

Results

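The comparison described here set 3-week-old Arabidopsis plants that overexpress the grapevine transcription factor VaWRKY14 (OE) against wild-type plants (WT), both of the accession Columbia-0 and both left without water for 5 days. It rests on 4 of the 8 RNA sequencing libraries of the study, 2 droughted OE and 2 droughted WT, which were taken by their titles. The other 4 libraries, 2 from watered OE and 2 from watered WT plants of the same age, are given as context. The labels call the tissue whole plants and the OE material a mixture of transgenic plants, and they name neither the promoter that drives the transgene nor the number of lines. One droughted OE library, the first, carries VaWRKY15 in its genotype label, against its title and source, so the main results are also given without it. The labels do not say that the replicates came from separate cultures, so p-values measure the spread between these samples only. The transgene has no entry in the tables and its level was not analysed here.

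WRKY proteins are plant transcription factors named for a conserved peptide motif in their DNA-binding domain. Many bind the W-box, a short promoter element with the core letters TTGAC, and many WRKY genes have such elements in their own promoters. The family is best known for regulating defence against pathogens, salicylic acid signalling and leaf senescence, and some members act in the responses to drought and to abscisic acid (ABA), the hormone that closes stomata in dry soil.

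The 8 libraries held 9591274 to 11378571 expected counts, and 3 counts corresponded to 0.242 to 0.313 CPM, the count per gene scaled for library size with TMM factors. In the droughted libraries 5 leaf markers summed to 26174 and 18837 CPM in WT and to 23899 and 27331 CPM in OE plants. Of 5 root markers, RHD6, EXPA7, COBL9 and PHT1;1 were at 0 in all 8 libraries, which goes against the label of whole plants, and PYK10 alone was detected. The 4 seed storage and oil body markers summed to at most 0.41 CPM. The 19 floral organ genes summed to 138 and 152 CPM in the droughted WT libraries and to 203 and 163 CPM in the droughted OE libraries, with no marker at 0 in any of these 4. Their sums in watered plants were 100.4 and 93.1 CPM in WT and 79.4 and 92.5 CPM in OE, where SHP2, STK, A9, MS2 and CYP703A2 were at 0 in the first library. The floral sums did not overlap between the droughted groups, and their part in the results that follow was not tested. In whole-plant RNA, fewer cells of a type and less RNA per cell cannot be told apart.

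Compared with droughted WT plants, droughted OE plants carried more mRNA of 8 receptor-like genes such as CRK14 and SOBIR1 and of WRKY53. They also carried more of AT4G03450, AT1G10340 and ANK, 3 genes annotated with ankyrin repeats. They carried less of FLC, of the anthocyanin regulators MYB90 and MYBL2 and of the pair MRD1 and HEI10. In what follows, rose and fell compare droughted OE with droughted WT plants, not droughted with watered plants. Of 19259 genes tested, 57 were called (0.296%), of which 31 were higher (0.161%) and 26 lower (0.135%) in OE plants. A gene was called at a Benjamini-Hochberg adjusted p under 0.05 in the quasi-likelihood test of edgeR. DESeq2 called 58 genes higher (0.301%) and 33 lower (0.171%), and ANK was not among them. At an unadjusted p under 0.05 in edgeR, 901 genes (4.68%) were higher and 870 (4.52%) lower, the background for the counts at that threshold given for each gene list. At least 2-fold changes were seen in 19 of the higher and 8 of the lower genes, and the median log2 fold change was 1.06 over the higher and -0.87 over the lower genes, against -0.006 over all genes tested. For all 57 the OE and WT libraries did not overlap, but both OE libraries lay above both WT libraries in 19.6% of all tested genes and below them in 20.9%. In 22 of the 31 higher genes both droughted WT libraries lay below both watered WT libraries. In 21 of the 26 lower genes both lay above them. The genes were called with these same droughted WT libraries, so both counts were partly set by that choice. The share over all genes was not computed, and the counts are not read as a difference in drought response. The calls depended on single libraries. Without the first droughted OE library, the one with the deviating label, 16 genes were called higher and 14 lower, and 20 of the 57 were among them. Without the second droughted WT library 51 of the 57 were no longer called, without the second droughted OE library 44, and without the first droughted WT library 20. LpxC2, LpxC4, AT1G24996, AT1G09932, HEI10 and MRD1 were called whichever of the 8 libraries was left out, and all 57 kept their direction in each of these fits. LpxC4 was not called with the replicate number as a block.

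**Figure D1:**
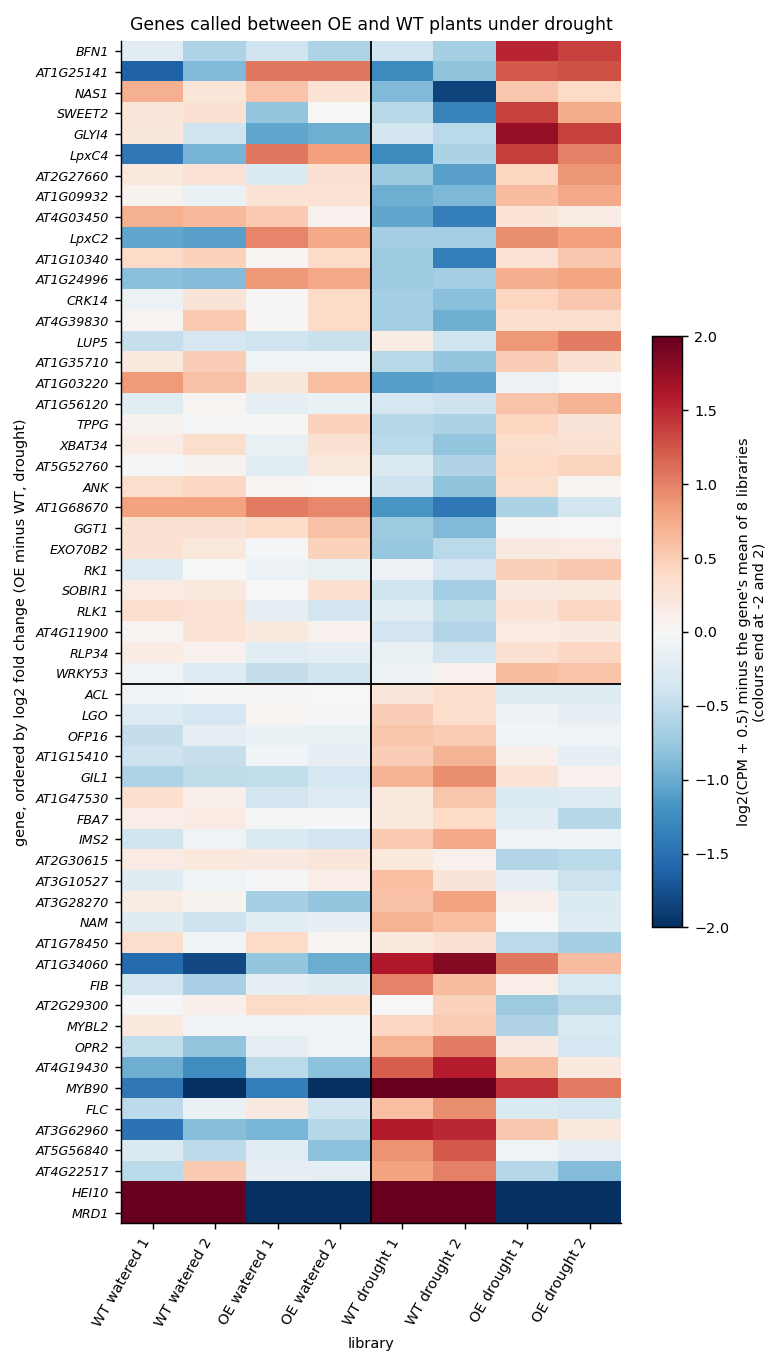
Heat map of the 57 genes called in the drought comparison, with 1 row per gene, ordered by log2 fold change, and 1 column per library. Colour gives log2(CPM + 0.5) minus the gene's mean over the 8 libraries. The 31 genes above the line are higher in both droughted OE columns than in both droughted WT columns, and the 26 below it are lower.

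**Figure D2:**
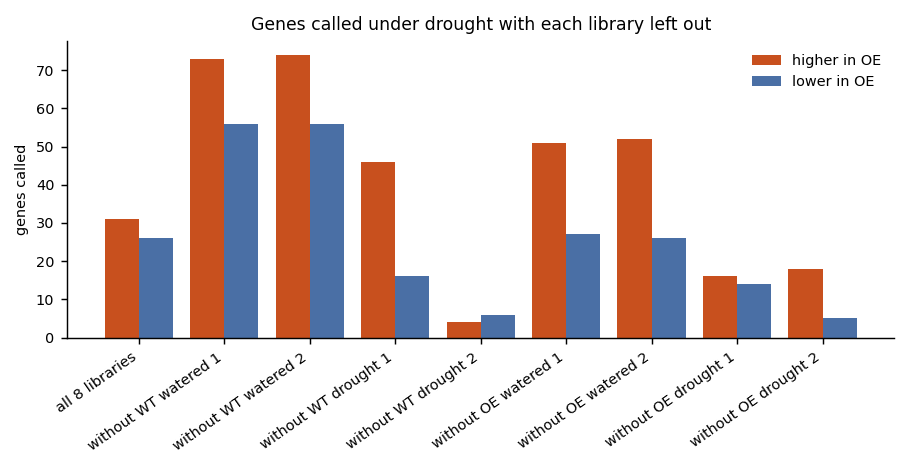
Number of genes called higher (orange) and lower (blue) in droughted OE plants with all 8 libraries and with each library left out in turn. The counts fall to 4 higher and 6 lower without the second droughted WT library and reach 74 higher and 56 lower without the second watered WT library.

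The promoters of the called genes were read for the W-box core. The letters TTGAC, on either strand, were present in the 250 bases before the annotated start of 22 of the 31 higher genes (71.0%) and 9 of the 26 lower genes (34.6%). Of all tested genes with such a window, 8522 of 19138 (44.5%) held them. At least 2 matches were found in 13 of the higher genes (41.9%), 2 of the lower genes (7.7%) and 14.1% of all. The longer forms TTGACC or TTGACT, which contain the core, occurred in 17 of the higher genes (54.8%), 7 of the lower genes (26.9%) and 27.8% of all. These shares are descriptions without a test, and a match does not show that a factor binds there. Windows with several matches are printed, those of the higher genes AT2G27660, GLYI4 and CRK14 and of the lower gene ACL, to show where the letters stand. Sequence, annotation and positions are those of RefSeq for TAIR10.1. AT2G27660 has its window at chr2:11800929-11801178 (minus strand) and GLYI4 at chr1:5290332-5290581 (plus strand). CRK14 has its window at chr4:12156882-12157131 (minus strand) and ACL at chr2:10043841-10044090 (minus strand). Each is written 5′ to 3′ on the gene's strand and ends at the base before the start, and capitals mark TTGAC or its reverse complement GTCAA.
AT2G27660: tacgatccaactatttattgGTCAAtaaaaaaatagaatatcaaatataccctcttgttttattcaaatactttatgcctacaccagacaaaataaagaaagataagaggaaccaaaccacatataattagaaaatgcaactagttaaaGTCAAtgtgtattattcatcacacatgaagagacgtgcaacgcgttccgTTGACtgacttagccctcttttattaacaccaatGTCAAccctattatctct
GLYI4: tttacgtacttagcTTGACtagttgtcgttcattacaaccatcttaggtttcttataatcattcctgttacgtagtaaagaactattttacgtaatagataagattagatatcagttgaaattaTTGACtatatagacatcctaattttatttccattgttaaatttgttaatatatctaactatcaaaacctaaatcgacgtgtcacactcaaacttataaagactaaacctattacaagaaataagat
CRK14: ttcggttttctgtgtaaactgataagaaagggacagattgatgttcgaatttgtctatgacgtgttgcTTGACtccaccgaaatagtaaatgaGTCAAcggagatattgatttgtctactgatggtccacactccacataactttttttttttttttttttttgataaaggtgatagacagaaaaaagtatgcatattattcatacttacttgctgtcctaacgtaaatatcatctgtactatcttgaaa
ACL: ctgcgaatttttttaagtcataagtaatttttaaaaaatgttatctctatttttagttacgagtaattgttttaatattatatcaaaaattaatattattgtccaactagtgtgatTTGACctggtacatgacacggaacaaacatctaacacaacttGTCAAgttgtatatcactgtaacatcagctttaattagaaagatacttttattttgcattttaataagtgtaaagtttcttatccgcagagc

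AT2G27660, which encodes a protein with cysteine- and histidine-rich C1 domains and whose window holds 4 matches, rose by 1.88 ± 0.33 on the log2 scale (SE, n = 2 per group). AT4G11900, a kinase described with the receptor genes, rose by 0.67 ± 0.12. OFP16, a member of the ovate family of transcriptional repressors, fell by 0.60 on the log2 scale, and ACL, annotated as an acetone-cyanohydrin lyase, fell by 0.53.

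Receptor-like kinases and receptor-like proteins sit in the plasma membrane and sense molecules outside the cell. By their annotated product, a grouping made after the calls were seen, 333 such genes were tested. Of them 8 were called higher and none lower by edgeR, where 0.161% of all tested genes were called higher. Of these 333, 72.4% had a positive log2 fold change and their median was 0.15, beside 48.9% and -0.006 over all genes. CRK14, a kinase with an extracellular cysteine-rich region and with 2 matches in its window, stood at 9.73 and 8.66 CPM in droughted WT and at 21.4 and 23.3 CPM in droughted OE plants. Both OE libraries were more than 2-fold above both WT libraries, and the watered libraries, at 14.5 and 19.0 CPM in WT and 16.1 and 20.7 CPM in OE, lay between the droughted groups. It rose by 1.29 ± 0.17 (edgeR adjusted p = 0.00371), and by 1.35 ± 0.21 without the first droughted OE library (adjusted p = 0.0157). It was not called without the second droughted WT library (adjusted p = 0.101).

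AT1G35710, a kinase with leucine-rich repeats, was at 299 and 256 CPM in droughted WT and 618 and 540 CPM in droughted OE plants. The droughted WT libraries were the lowest of the 8, since watered WT plants had 500.2 and 618 CPM and watered OE plants 412 and 416 CPM. It rose by 1.06 ± 0.15 (edgeR adjusted p = 0.00453). AT1G56120, of the same kinase class, was at 15 and 14.2 CPM in droughted WT and 28.7 and 30.8 CPM in droughted OE plants. Here the droughted OE libraries were the highest of the 8, as the watered libraries held 16.2 to 19.9 CPM. It rose by 1.03 ± 0.14 (edgeR adjusted p = 0.00371).

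SOBIR1, a leucine-rich repeat kinase that partners with receptor-like proteins in immune signalling, was at 182 and 149 CPM in droughted WT and 271 and 275 CPM in droughted OE plants. Its droughted OE level lay within the range of the watered libraries, 241 to 299 CPM, and the droughted WT libraries lay below that range. It rose by 0.72 ± 0.14 (edgeR adjusted p = 0.0375), a call lost without the first droughted OE library (adjusted p = 0.18). RLP34, a receptor-like protein without a kinase domain, was at 72.0 and 62.0 CPM in droughted WT and 99.5 and 107 CPM in droughted OE plants, the highest of the 8 libraries. It rose by 0.62 ± 0.11. The others were RK1 (0.76 ± 0.13), RLK1 (0.72 ± 0.13) and AT4G11900, kinases related to the S-locus receptors of self-incompatibility. SOBIR1, RLP34 and AT4G11900 each overlap an annotated gene on the opposite strand, and since the use of strand in counting is not stated, reads of such pairs cannot be told apart.

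**Figure D3:**
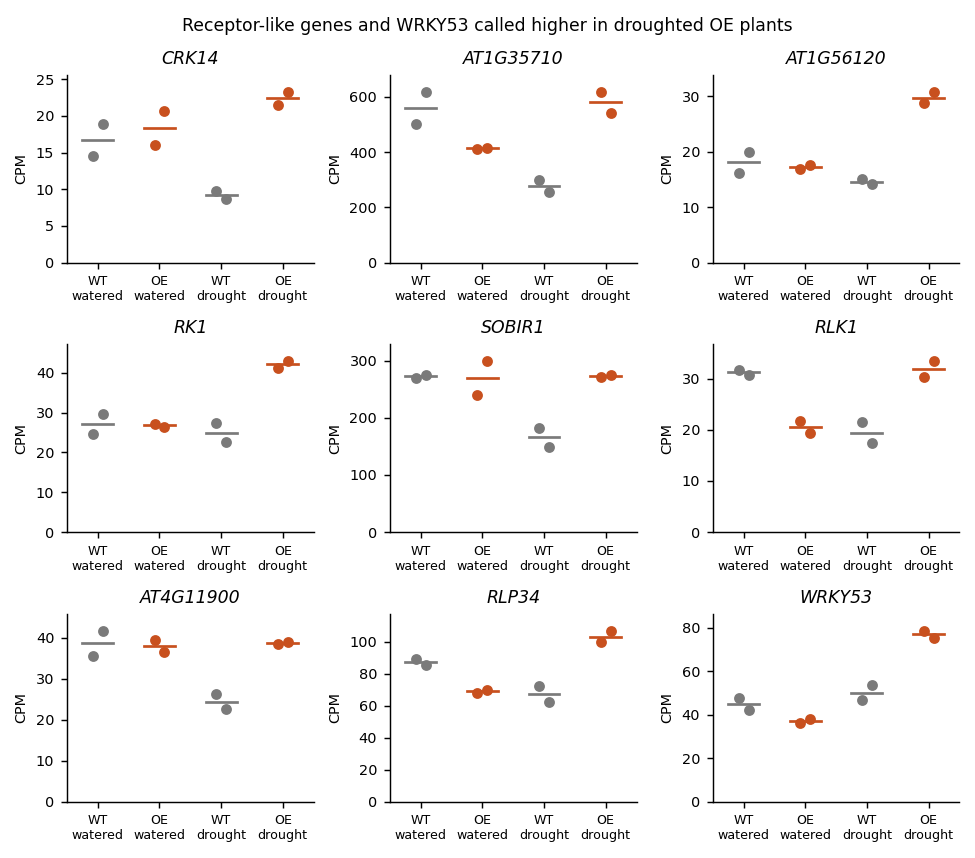
CPM of the 8 receptor-like genes called higher and of WRKY53 in the 4 groups. Points are libraries, bars are the means of 2 libraries, and each vertical axis starts at 0. In every panel both droughted OE points lie above both droughted WT points.

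The list of cysteine-rich receptor-like kinases (CRKs) gave the wider family of CRK14. Of its 33 tested members 1 was called higher and none lower by edgeR, 4 higher and none lower by DESeq2, and 13 were higher and 1 lower at an unadjusted p under 0.05. The log2 fold change was positive for 28 of 33, with a median of 0.28. CRK7 was at 8.15 and 6.31 CPM in droughted WT and 14.1 and 16.1 CPM in droughted OE plants (1.07 ± 0.22, edgeR adjusted p = 0.0591). CRK15 was at 4.91 and 4.05 CPM in WT and at 8.55 CPM in both OE libraries (0.94 ± 0.22, edgeR adjusted p = 0.104). Neither passed the edgeR test, CRK7 was among the 4 called by DESeq2 (with CRK4, CRK6 and CRK14), and the droughted groups of both genes did not overlap.

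Ankyrin repeats are protein interaction modules found in several plant immune regulators. The genes whose annotated product names them, another grouping made after the calls were seen, numbered 69. By edgeR 3 of them were called higher and none lower, where 0.161% of all tested genes were called higher. The median of all 69 was 0.02, and 52.2% had a positive log2 fold change. AT1G10340 was at 7.56 and 4.61 CPM in droughted WT and 15.6 and 18.6 CPM in droughted OE plants, and the watered libraries held 13.0 to 17.6 CPM. Only the droughted WT libraries stood apart, at the low end. It rose by 1.51 ± 0.21 (edgeR adjusted p = 0.00595). AT4G03450 rose by 1.61 ± 0.26 at few counts, with 6.33 CPM or less in each droughted library. ANK rose by 0.84 ± 0.17 (edgeR adjusted p = 0.0472) and was not called by DESeq2. It was called in 3 of 8 fits with 1 library left out, with log2 fold changes from 0.63 to 1.06. The watered libraries held 5.52 to 8.78 CPM for AT4G03450 and 14.9 to 19.9 CPM for ANK. For both genes the droughted OE libraries lay within the watered range, and the droughted WT libraries were the lowest of the 8. XBAT34, a RING-type ubiquitin ligase, was outside the ankyrin grouping, since its annotated product reads uncharacterized protein. It was at 51.3 and 43.1 CPM in droughted WT and 94.8 and 92.0 CPM in droughted OE plants (0.99 ± 0.15, edgeR adjusted p = 0.0118). EXO70B2, an exocyst subunit that takes part in the traffic of immune receptors, rose by 0.82 ± 0.14.

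In the list of salicylic acid and defence genes, salicylic acid being the hormone of resistance to biotrophic pathogens, 1 of 41 tested genes was called higher (SOBIR1) and none lower by edgeR. With the replicate number as a block edgeR called none. DESeq2 called 3 higher and none lower, and 15 were higher and none lower at an unadjusted p under 0.05. The log2 fold change was above 0 for 39 of 41. Its median was 0.42, against 0.45 with the first droughted OE library left out and 0.23 with the second droughted WT library left out. SARD1, a regulator of salicylic acid synthesis, was at 38.0 and 29.6 CPM in droughted WT and 53.9 and 50.0 CPM in droughted OE plants (0.62 ± 0.13, edgeR adjusted p = 0.0802). EDS1, which links immune receptors to salicylic acid, was at 21.1 and 20.3 CPM in WT and 29.0 and 33.5 CPM in OE plants (0.59 ± 0.14, edgeR adjusted p = 0.104). For both genes the OE libraries were higher without overlap, but neither passed the test.

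The pathogenesis-related markers PR1, PR2 and PR5 overlapped between the droughted groups. PR1, the classical salicylic acid marker, was at 13.8 and 0.81 CPM in droughted WT and at 8.63 and 17.8 CPM in droughted OE plants, with a log2 fold change of 0.94 ± 1.21 (edgeR adjusted p = 0.881). PR2, a beta-1,3-glucanase, was at 183 and 63.2 CPM in WT and 81.2 and 136 CPM in OE (-0.18 ± 0.64). PR5, a thaumatin-like protein, was at 70.2 and 25.4 CPM in WT and 47.0 and 59.4 CPM in OE (0.17 ± 0.54). In all 3 the first droughted WT library being well above the second, and the sign changed when single libraries were left out.

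The WRKY family was divided by its structural groups. WRKY53, a group III factor known for promoting leaf senescence, was at 46.8 and 53.6 CPM in droughted WT and 78.7 and 75.3 CPM in droughted OE plants. The droughted OE libraries were the highest of the 8, with 47.9 and 42.0 CPM in watered WT and 36.2 and 38.2 CPM in watered OE plants. It rose by 0.62 ± 0.11 (edgeR adjusted p = 0.0312), a call lost without any 1 of the 4 droughted libraries, with log2 fold changes from 0.54 to 0.71. 3xHMG-box2, which overlaps WRKY53 on the opposite strand, stood at 48.0 and 48.7 CPM in WT and 66.1 and 62.6 CPM in OE (0.41, edgeR adjusted p = 0.212), and the division of reads between the overlapping genes is not known.

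Of 9 tested group III genes 8 had a log2 fold change above 0 (median 0.62), and 1 was called by edgeR and by DESeq2. WRKY46 was at 6.68 and 6.72 CPM in droughted WT and 9.86 and 12.8 CPM in OE (0.76 ± 0.20, edgeR adjusted p = 0.175), and WRKY30 stayed under 2 CPM in all libraries. WRKY70, which acts between salicylic acid and jasmonate signalling, was at 280.4 and 204 CPM in WT and 301 and 327 CPM in OE (0.37 ± 0.15, edgeR adjusted p = 0.453), so the OE libraries were higher by a margin that did not pass the test. In group II, edgeR and DESeq2 called none of 32, and 4 were higher and 2 lower at an unadjusted p under 0.05, with a median of 0.14. WRKY51 was at 2.55 and 1.62 CPM in WT and 4.77 and 5.32 CPM in OE (1.29 ± 0.29, edgeR adjusted p = 0.0996). WRKY69 was at 24.9 and 25.3 CPM in WT and 17.8 and 17.3 CPM in OE (-0.51 ± 0.14), and WRKY61 was under 2 CPM. These stood in opposite directions without passing the test. In group I, edgeR and DESeq2 called none of 12, and 2 were higher and 1 lower at an unadjusted p under 0.05, with a median of -0.06. WRKY26 was at 54.3 and 67.7 CPM in WT and 40.0 and 47.0 CPM in OE (-0.49 ± 0.13, edgeR adjusted p = 0.19). WRKY33, a regulator of camalexin synthesis, was at 134 and 132 CPM in WT and 149.7 and 178 CPM in OE (0.30 ± 0.14), and WRKY58 was at 0.62 ± 0.29. Leaving out the first droughted OE library gave a group II median of 0.04, and leaving out the second gave a group I median of -0.03.

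**Figure D4:**
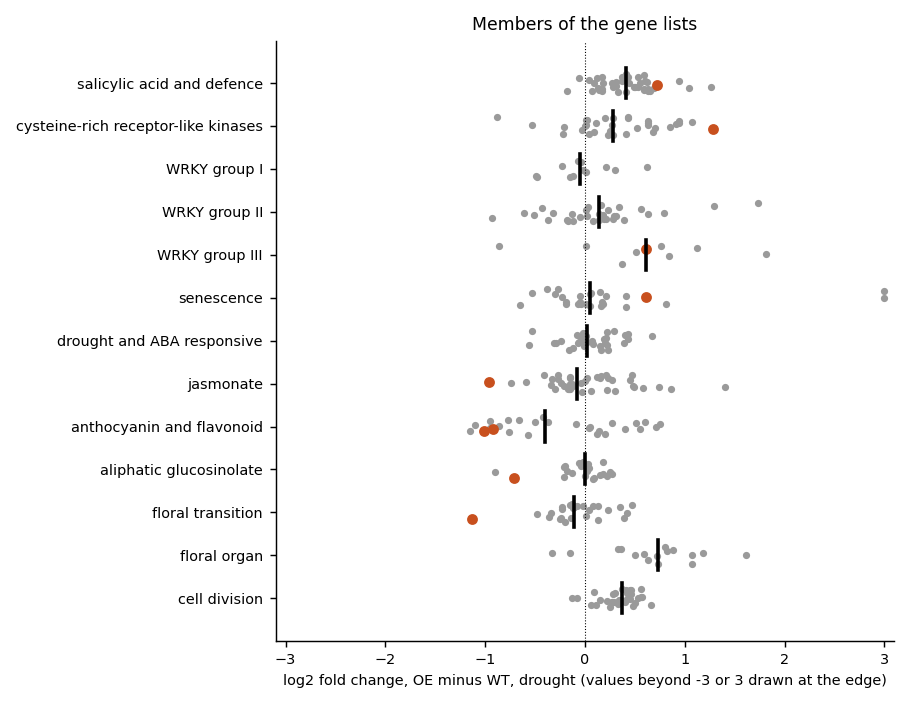
Log2 fold change (OE minus WT, drought) of every tested member of 13 gene lists. Grey points were not called, orange points were called at an adjusted p under 0.05, and black bars are list medians. The medians are farthest above 0 for floral organ (0.73), WRKY group III (0.62) and salicylic acid and defence genes (0.42), and lowest for anthocyanin and flavonoid genes (-0.40).

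Senescence dismantles the leaf and moves its nitrogen elsewhere. Of 27 senescence genes, edgeR called WRKY53 higher and none lower, DESeq2 called 3 higher and 1 lower, and the median was 0.05, or -0.08 without the second droughted WT library. SAG12, a cysteine protease used as a marker of senescing leaves, was at 6.19 and 4.45 CPM in droughted WT and at 185 and 58.6 CPM in droughted OE plants, and at 0.10 CPM or less in the 4 watered libraries. The droughted OE libraries were far above the WT libraries but also differed from each other. The change of 4.53 ± 0.86 did not pass the main edgeR test (adjusted p = 0.344). DIN2, a beta-glucosidase induced in darkness, was at 0.10 and 0.16 CPM in droughted WT and 15.2 and 12.3 CPM in droughted OE plants. That is 337 against 3 counts, a ratio of 103 with a 95% interval of 35 to 502 from counting error only, and its edgeR adjusted p was 0.104. Both SAG12 and DIN2 were called by DESeq2, and SAG12 also by edgeR with the replicate number as a block. GLN1;4, a cytosolic glutamine synthetase, pointed the other way, with 186 and 187 CPM in WT and 137 and 101 CPM in OE (-0.65 ± 0.14, edgeR adjusted p = 0.0802). It was the list member that DESeq2 called lower. BFN1, a nuclease of senescence and programmed cell death that was outside the list, rose from 3 counts in the droughted WT libraries to 49 in the OE libraries, a ratio of 15 (95% interval 4.84 to 75.2, counting error only). Its levels were 0.20 and 0.08 CPM in WT and 2.14 and 1.86 CPM in OE plants. BFN1 was not called by DESeq2, nor by edgeR without any 1 of the 4 droughted libraries, and its log2 fold change of 3.79 was 4.46 without the first and 3.26 without the second droughted WT library.

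Several genes of transport and metabolism were among those with the highest fold changes. GLYI4, of the glyoxalase I family whose enzymes remove the toxic by-product methylglyoxal, was at 2.16 and 1.86 CPM in droughted WT and 11 and 8.39 CPM in droughted OE plants. The droughted OE libraries were the highest of the 8, and the watered OE libraries, at 1.18 and 1.25 CPM, the lowest. It rose by 2.27 ± 0.28 (edgeR adjusted p = 0.00178), and by 2.07 ± 0.35 without the first droughted OE library (adjusted p = 0.0239). It was not called without the second droughted WT library (adjusted p = 0.0734). Of the 11 tested genes of the glyoxalase list it was the only one called, by edgeR and by DESeq2, and the list median was -0.05. GLYI7 was at 6.58 and 8.42 CPM in WT and 23.8 and 16.4 CPM in OE (1.41 ± 0.64, edgeR adjusted p = 0.602), and DJ1A was at 218 and 244 CPM in WT and 168 and 213 CPM in OE (-0.28 ± 0.14).

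SWEET2, a glucose transporter of the vacuole membrane, was at 1.47 and 0.65 CPM in droughted WT and 6.99 and 4.36 CPM in droughted OE plants. That is 139 against 23 counts, a ratio of 5.54 (95% interval 3.55 to 9.04, counting error only), and the change was 2.45 ± 0.40. Without the first droughted WT library it was 3.12, and without the second 1.93, where SWEET2 was not called. NAS1, which makes the metal chelator nicotianamine, had 10 counts in droughted WT and 69 in droughted OE plants, a ratio of 6.33 (interval 3.24 to 13.8, counting error only). It was at 0.79 and 0.16 CPM in droughted WT and 2.96 and 2.66 CPM in droughted OE plants. The watered libraries held 2.31 to 3.41 CPM, so only the droughted WT libraries of NAS1 stood apart, at the low end. Its log2 fold change of 2.62 was 4.04 without the first and 1.82 without the second droughted WT library, and NAS1 was called without the first but not without any other droughted library. LUP5, a terpenoid cyclase, was at 7.96 and 5.34 CPM in WT and 13.6 and 15.1 CPM in OE plants and 5.07 to 5.58 CPM in watered plants (1.12 ± 0.19). The droughted OE libraries were again the highest for LUP5. AT1G09932, annotated as a phosphoglycerate mutase, was at 3.63 and 3.88 CPM in WT and 12.0 and 13.2 CPM in OE plants (1.74 ± 0.18, edgeR adjusted p = 0.000337). AT1G03220, an aspartyl protease, was at 8.64 and 8.90 CPM in WT and 17.6 and 18.9 CPM in OE plants, against 22.3 to 34.7 CPM in watered plants (1.05 ± 0.16). For AT1G03220 all droughted libraries lay below the watered ones, and those of WT plants were the lowest. TPPG, a trehalose-6-phosphate phosphatase, was at 5.11 and 4.86 CPM in WT and 10.7 and 9.44 CPM in OE plants. AT4G39830, a cupredoxin, was at 7.86 and 6.31 CPM in WT and 16.4 and 16.2 CPM in OE plants, and AT5G52760, of a copper transport family, at 14.3 and 11.41 CPM in WT and 23.4 and 24.2 CPM in OE plants. Each of these rose, by 1.01 (TPPG), 1.21 (AT4G39830) and 0.89 (AT5G52760). The call of TPPG (edgeR adjusted p = 0.0453) was lost without any 1 of the 4 droughted libraries. TPPG was also not called by DESeq2 or with the replicate number as a block. GGT1, annotated as a gamma-glutamyl transpeptidase, was higher in droughted OE than in droughted WT plants by 0.82, and the myb-like factor AT1G68670 by 0.83. GGT1 was at 15.8 and 14.1 CPM in droughted WT, 26.8 and 26.1 CPM in droughted OE and 32.4 to 39.5 CPM in watered plants. AT1G68670 was at 10.7 and 8.82 CPM in droughted WT, 15.6 and 18.9 CPM in droughted OE and 43.1 to 50.9 CPM in watered plants. For both genes all droughted libraries lay below the watered ones.

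A further set of genes differed between OE and WT plants in both watering conditions. LpxC2, annotated as a deacetylase of the lipid A pathway, was at 267 and 262 CPM in droughted WT and 804 and 748 CPM in droughted OE plants (1.55 ± 0.14), and AT1G24996 at 226 and 233 CPM in WT and 619 and 647 CPM in OE (1.46 ± 0.13). LpxC4 was at 13.4 and 21.0 CPM in WT and 87.2 and 66.6 CPM in OE (2.15 ± 0.25), and its neighbour AT1G25141 rose by 2.98 ± 0.40. The locus, on chromosome 1, holds near-identical gene copies, among which reads may have been split. MRD1 was at 44.0 and 38.3 CPM in droughted WT and 0.33 and 0.24 CPM in droughted OE plants, 7 against 921 counts, or 0.697% of the WT level (95% interval 0.28% to 1.44%, counting error only). HEI10, a meiotic crossover factor that overlaps MRD1 on the opposite strand, was at 58.3 and 56.3 CPM in WT and 2.22 and 1.45 CPM in OE (-4.96 ± 0.17, edgeR adjusted p = 1.92e-10). Watered OE plants were as low, with 0.59 and 0.10 CPM for MRD1 and 1.78 and 2.08 CPM for HEI10. The reads of this overlapping pair cannot be told apart either, so the 2 falls may not be separate results. AT3G28270, of unknown function, was at 41.5 and 48.6 CPM in droughted WT and 29.7 and 22.6 CPM in droughted OE plants (-0.79 ± 0.14). These are the 7 of the 57 genes that were also called in watered plants.

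Among the lower genes, those of anthocyanin synthesis included factors of opposite role. MYB90 (PAP2), an activator of anthocyanin genes, was at 27.6 and 31.7 CPM in droughted WT and 16.9 and 12.6 CPM in droughted OE plants, and under 2 CPM in all watered libraries. The droughted OE libraries thus lay between the watered and the droughted WT libraries. It fell by 1.01 on the log2 scale (SE 0.19, edgeR adjusted p = 0.0421). MYBL2, a repressor of the same genes, was at 93.5 and 99.7 CPM in droughted WT and 45.7 and 56.6 CPM in droughted OE plants, below the 65.4 to 79.8 CPM of the watered libraries. It fell by 0.92 on the log2 scale (SE 0.12, edgeR adjusted p = 0.00418). Of 28 anthocyanin and flavonoid genes, these 2 were called lower and none higher by edgeR and by DESeq2, 9 were lower and 2 higher at an unadjusted p under 0.05, and the median was -0.40. Without the first droughted OE library neither was called (adjusted p = 0.0652 for MYB90 and 0.0743 for MYBL2), and the median was -0.44. Leaving out the second droughted OE library gave a median of -0.19, and leaving out the second WT one gave -0.22. MYB90 was not called without any 1 of the 4 droughted libraries, and MYBL2 was also lost without the second droughted WT library. UGT75C1, an anthocyanin glucosyltransferase, was at 36.9 and 55.8 CPM in WT and 30.5 and 24.6 CPM in OE (-0.76 ± 0.17, edgeR adjusted p = 0.129).

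FLC, the MADS-box repressor of flowering, was at 18.6 and 23.4 CPM in droughted WT and 9.86 and 9.36 CPM in droughted OE plants. The droughted WT libraries were the highest of the 8, and the droughted OE libraries lay within the 8.29 to 13.7 CPM of the watered plants. FLC fell by 1.13 on the log2 scale (SE 0.20, edgeR adjusted p = 0.0247), and by 1.16 without the first droughted OE library, where it was not called (adjusted p = 0.159). It was also not called without the second library of either droughted group. Of 26 floral transition genes it was the only one called by edgeR and by DESeq2, and the median was -0.11, or -0.03 without the second droughted OE library. FD, a partner of the flowering signal FT, was at 46.4 and 59.6 CPM in WT and 39.0 and 36.9 CPM in OE (-0.48 ± 0.13), and SPL3, a flowering promoter, at 37.5 and 35.1 CPM in WT and 48.0 and 46.9 CPM in OE (0.39 ± 0.11). Neither passed the test, with edgeR adjusted p of 0.179 for FD and 0.242 for SPL3.

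Of 16 tested floral organ genes edgeR called none, DESeq2 called LAP5 higher, and 6 were higher and 1 lower at an unadjusted p under 0.05. The log2 fold change was positive for 14 of 16, with a median of 0.73. LAP5, which makes pollen wall precursors in the anther, was at 3.05 and 3.88 CPM in droughted WT and 11.7 and 9.76 CPM in droughted OE plants (1.62 ± 0.32, edgeR adjusted p = 0.0574). SEP1, a MADS-box factor of floral organ identity, was at 5.01 and 4.78 CPM in WT and 11 and 9.6 CPM in OE (1.07 ± 0.31), and LAP6 at 13.3 CPM in both WT libraries and 21.9 and 15.6 CPM in OE (0.50 ± 0.17). The OE libraries were higher for all 3 without overlap.

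**Figure D5:**
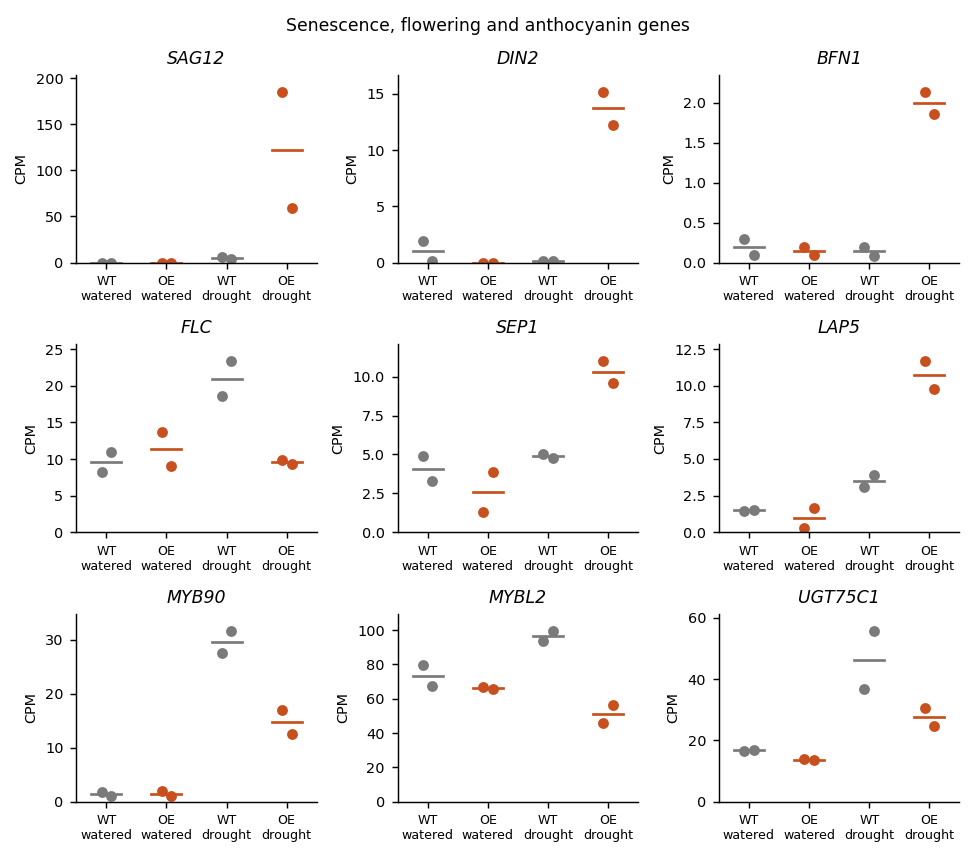
CPM of senescence genes (SAG12, DIN2, BFN1), flowering and floral organ genes (FLC, SEP1, LAP5) and anthocyanin genes (MYB90, MYBL2, UGT75C1) in the 4 groups. Points are libraries and bars are means of 2 libraries. SAG12 reaches 185 and 58.6 CPM in the droughted OE libraries against at most 6.19 CPM elsewhere, and FLC is lower in the droughted OE than in the droughted WT libraries.

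The cell division genes had mostly positive log2 fold changes. Of 32 tested, edgeR and DESeq2 called none, 13 were higher and none lower at an unadjusted p under 0.05, and 30 of 32 were positive with a median of 0.37. TSO2, a ribonucleotide reductase subunit, was at 35.4 and 36.6 CPM in droughted WT and 51.4 and 49.5 CPM in droughted OE plants (0.49 ± 0.11, edgeR adjusted p = 0.111). MCM2, of the replicative helicase, was at 16.6 and 16.4 CPM in WT and 22.9 and 22.3 CPM in OE (0.46 ± 0.14), and PCNA1, the sliding clamp of DNA replication, at 13.4 and 12.8 CPM in WT and 19.3 and 19.2 CPM in OE (0.56 ± 0.17). The summed floral organ genes were higher in the same OE libraries, as given above, and their part in this was not tested. LGO, a cyclin-dependent kinase inhibitor that promotes endoreduplication, fell by 0.56 on the log2 scale, as did the overlapping AT3G10527, by 0.75, and the reads of the pair cannot be told apart.

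No gene of the list of drought and ABA responsive genes passed the test between the genotypes. Of 35 tested, edgeR and DESeq2 called none, 4 were higher and none lower at an unadjusted p under 0.05, and the median was 0.02, or 0.15 without the first droughted WT library. RD29A was at 197 and 172 CPM in droughted WT and 217 and 234 CPM in droughted OE plants (0.29 ± 0.13, edgeR adjusted p = 0.501). COR15A, a protective protein of the chloroplast, was at 270.1 and 230.0 CPM in WT and 216 and 194 CPM in OE (-0.29 ± 0.21), and NCED3, the limiting enzyme of ABA synthesis under drought, at 7.56 and 7.28 CPM in WT and 11.3 and 8.71 CPM in OE (0.43 ± 0.20). The direction thus differed among these markers, and none passed the test. P5CS1, of proline synthesis, was at 55.2 and 59.5 CPM in WT and 59.7 and 94.7 CPM in OE (0.43 ± 0.18). HAI1, a phosphatase of ABA signalling, was at 4.52 and 5.75 CPM in WT and 8.71 and 7.74 CPM in OE (0.67 ± 0.22, edgeR adjusted p = 0.331). RAB18 (0.22 ± 0.30) and RD22 (0.01 ± 0.14) overlapped between the groups, and their sign changed when single libraries were left out.

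IMS2 (MAM3), which elongates the side chains of aliphatic glucosinolates, was at 58.0 and 67.6 CPM in droughted WT and 38.0 and 38.6 CPM in droughted OE plants, and fell by 0.71 on the log2 scale (SE 0.12, edgeR adjusted p = 0.0244). It was the only one called of 25 aliphatic glucosinolate genes, by edgeR and by DESeq2, with a list median of -0.001. MYB76 was under 6 CPM in all libraries, and FMOGS-OX3 was at 50.4 and 44.8 CPM in WT and 61.9 and 53.1 CPM in OE (0.27 ± 0.11). OPR2, a reductase of the 12-oxophytodienoate type, was at 25.8 and 32.9 CPM in WT and 17.9 and 12.3 CPM in OE plants and fell by 0.96 on the log2 scale. Of 42 jasmonate genes OPR2 was the only one called, by edgeR and by DESeq2, and the median was -0.08, or 0.08 without the first droughted WT library. AOC1, of jasmonate synthesis, was at 56.5 and 53.5 CPM in WT and 36.3 and 36.9 CPM in OE (-0.59 ± 0.16, edgeR adjusted p = 0.206), whereas JAZ1, a repressor of the pathway, was at 39.6 and 50.3 CPM in WT and 57.4 and 69.3 CPM in OE (0.49 ± 0.17).

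FIB, a fibrillin of plastid lipid bodies, was at 362 and 277 CPM in droughted WT and 197 and 146 CPM in droughted OE plants, against 115 to 162 CPM in the watered libraries, and fell by 0.89 on the log2 scale. AT1G34060, a pyridoxal phosphate enzyme, was at 75.2 and 88.3 CPM in WT and 51.5 and 37.6 CPM in OE plants, against 6.64 to 14 CPM in watered plants (-0.88 ± 0.15). NAM, a NAC transcription factor, was at 24.4 and 22.8 CPM in WT and 14.7 and 12.3 CPM in OE plants (-0.80 ± 0.14). In all 3 the droughted WT libraries were the highest of the 8. AT5G56840, a myb-like factor, was at 20.6 and 26.2 CPM in WT and 10.3 and 9.6 CPM in OE plants (-1.24 ± 0.19), and AT3G62960, of the thioredoxin superfamily, at 18.5 and 17.4 CPM in WT and 8.63 and 6.70 CPM in OE plants (-1.23 ± 0.20). AT4G19430 was at 16.2 and 21.2 CPM in WT and 10.9 and 7.91 CPM in OE plants (-1.0 ± 0.19). AT2G29300 was at 25.9 and 36.3 CPM in WT and 15.6 and 17.6 CPM in OE plants (-0.91 ± 0.15), and AT1G78450, a heme-binding protein, at 30.4 and 32.6 CPM in WT and 18.3 and 16.5 CPM in OE plants (-0.86 ± 0.16). For AT2G29300 and AT1G78450 the droughted OE libraries were the lowest of the 8. The others that fell were AT4G22517 (-1.90), AT1G15410, of a racemase family (-0.64), AT2G30615 (-0.72), FBA7, an aldolase (-0.70), AT1G47530, a MATE transporter (-0.67), and GIL1, which acts in the light control of gravitropism (-0.64). FLC, OPR2, FBA7, GIL1, AT1G15410, AT2G30615, AT4G22517, LpxC2 and ANK overlap other annotated genes, with the same limit on the division of reads.

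Whether the genotypes differed by a different amount under drought than with watering was tested as the difference between the 2 contrasts. Of 19259 genes 31 were called for this difference (0.161%), and 16 of them were among the 57, 12 higher and 4 lower under drought. The drought contrast that called the 57 is a term of this difference, so the overlap and its directions were partly set in advance. WRKY53 had a log2 fold change of 0.62 under drought and -0.27 with watering, a difference of 0.89 (edgeR adjusted p = 0.0447). GLYI4 had 2.27 under drought and -1.20 with watering, and AT1G35710 1.06 and -0.43. The watered log2 fold changes of the 12 higher genes ranged from -1.20 (GLYI4) to 0.32 (AT1G09932). Without the second droughted OE library 2 genes were called for the difference, without the second droughted WT library 7, without the first droughted OE library 21 and without the second watered WT library 326.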

How the data were processed

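Libraries of total RNA were sequenced, with preparation by an Illumina protocol per the labels. Each library has its own table with the expected count of every gene, not normalized by the authors, and its FPKM, per the file headers. The FPKM values deposited by the authors were read but no result rests on them. The submitters' processing notes name STAR, HISAT2 2.0.5, featureCounts, edgeR and the build TAIR10, with no order. Use of strand in counting is not given in the sources used here. Between 88.06% and 88.81% of the listed counts were whole numbers. Genes absent from a library's table were set to 0. Of 24132 genes listed in any library, 23929 (99.2%) matched the RefSeq annotation of TAIR10.1, the source of symbols, products, positions and the windows of 250 bases before each gene start.

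Expected counts were rounded, and edgeR 4.0.16 was run under R 4.3.3 (filterByExpr at a minimum count of 10, TMM scaling, robust quasi-likelihood test, all 8 libraries with 1 mean per group and 4 residual degrees of freedom). The biological coefficient of variation was 10.2%. The contrast was droughted OE minus droughted WT, and its difference from the watered contrast. Tests were two-sided with Benjamini-Hochberg adjustment over all 19259 genes. SE is the log2 fold change divided by the square root of F, and it is not printed for MRD1, whose OE counts were few. Alternatives were RLE scaling, no filter, DESeq2 1.42.0, a replicate block, the droughted libraries alone, no robust estimation, glmTreat at 1.2-fold and each library left out. The fits were tested on simulated data, where the share of false calls was above the threshold of 0.05, so the adjusted p-values may be too small.

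The members and gene lists were chosen with earlier results of these data known. Values per library are given for the 15 called genes with the largest change in each direction at a mean of at least 5 CPM, called list members, the 3 members of each list with the smallest p, and 12 fixed markers. Promoter windows were printed for the called genes with the most matches, up to 4 higher and 2 lower, and some of these are not reported here. BFN1, SWEET2, NAS1 and 3xHMG-box2 were given by value after their values were seen. Depth was 9591274 to 11378571 expected counts per library. Intervals are exact at 95% and cover counting error only. The libraries of a group differed by more than sampling noise (chi-square per degree of freedom 5.70 to 10.2).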

Additional observations from a re-analysis of the deposited data

Results flagged for a closer look

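For 16 of the 57 called genes the difference between OE and WT plants was not the same under drought as with watering, by the edgeR test of the difference itself at an adjusted p under 0.05. It was positive, with the drought contrast above the watered one, for GLYI4 (3.47 on the log2 scale), SWEET2 (3.20), AT4G03450 (2.00), AT1G10340 (1.71), AT1G35710 (1.5), AT1G09932 (1.42), AT1G03220 (1.36), RLK1 (1.32), XBAT34 (1.15), AT1G56120 (1.1), RLP34 (0.96) and WRKY53 (0.89). It was negative for AT1G34060 (-1.70), OPR2 (-1.5), AT2G29300 (-1.25) and LGO (-0.88), with OE plants lower under drought. The 57 were called by the drought contrast, a term of this difference, so the count of 16 and these signs were partly set by that choice. GLYI4 and SWEET2 rest on few counts in the watered OE libraries, at 1.18 and 1.25 CPM for GLYI4 and 1.18 and 2.40 CPM for SWEET2.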

How the results depend on the processing

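The count of genes called between droughted OE and WT plants was 57 (31 higher, 26 lower). It was 108 (62 and 46) with no filter on low counts, 91 (58 and 33) with DESeq2, 233 (151 and 82) with the droughted libraries alone, 22 (17 and 5) with glmTreat at 1.2-fold, 40 (29 and 11) with no robust estimation and 54 (30 and 24) with RLE scaling. With each library left out it ranged from 10 to 130 (4 to 74 higher, 5 to 56 lower). Of the 57, DESeq2 called 51, the droughted libraries alone 57 and glmTreat 22. Those not called by DESeq2 were BFN1, TPPG, ANK, OFP16, AT1G15410 and AT4G19430. The 31 genes called for the difference between drought and watering became 202 with no filter, 146 with DESeq2, 13 with no robust estimation, 32 with RLE scaling and 2 to 326 with each library left out. The cause of these shifts was not tested. The log2 fold change changed sign with libraries left out for PR1 (-0.061 to 4.03), PR2 (-0.76 to 0.79), PR5 (-0.41 to 1.08), RAB18 (-0.071 to 0.47) and RD22 (-0.11 to 0.13), none of them called. Of 225 recomputed list medians 209 moved by no more than the spread allowed and 16 by more.

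Same-numbered libraries showed no shared deviation across genes (correlations -0.08 to 0.06). With 2 libraries per group these values cannot show whether same-numbered samples were handled together. With the replicate number as a block the counts were 63 (40 and 23) and 44, and 49 of the 57 were called. With 2 libraries per group, uncalled differences say little about equality, and genes under 5 CPM rest on few counts.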
